A study of Mus musculus with 8 samples.

Results

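The granule proteins of granulocytes, mast cells and basophils were followed in cultured mouse megakaryocytes through 33 gene symbols, 15 of neutrophils, 7 of eosinophils and 11 of mast cells and basophils. The members were set by name, as a list drawn up with earlier results of these data known, and each lineage was described apart. The count table held 31 of them among its 27679 genes, namely 15 neutrophil, 7 eosinophil and 9 mast cell and basophil genes, and Mcpt4 and Tpsab1 were not analysed here. Enough reads for a test were present for 28 genes (14, 7 and 7 in the 3 lineages), while Retnlg, Cma1 and Tpsb2 lay under the low-count filter and are given as counts.

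The study compared 4 libraries of megakaryocytes grown in hydrogel with 4 grown in liquid medium. Its title concerns mechanical confinement and ectopic platelet release. All cells came from the bone marrow of wild type C57BL/6 mice, and the labels give neither age nor sex. Lineage-negative cells, from which marrow cells with mature lineage markers had been removed by magnetic depletion, were kept for 3 days in a methylcellulose hydrogel (2%, with a stated Young modulus of 30 to 60 Pa) or in liquid medium, and both groups then passed through a 2 to 4% albumin gradient that enriches large, mature megakaryocytes. The preparations are thus enriched cultures and not sorted cells, and the 4 replicates of each group are described as independent.

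Neutrophils load their granules in steps as they mature. Promyelocytes make the azurophil (primary) granule proteins Mpo, Elane, Prtn3 and Ctsg, and later stages make the specific and gelatinase granule proteins such as Ltf, Camp and Ngp. Eosinophils store cationic proteins and a peroxidase, while mast cells and basophils store proteases and histamine that are released when the high-affinity IgE receptor is crosslinked. In marrow these lineages and the megakaryocyte lineage arise from shared progenitors, and eosinophils, basophils and mast cells share with megakaryocytes a use of GATA transcription factors.

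Megakaryocyte genes dominated all libraries. The summed level of 12 megakaryocyte markers was 26026 to 37875 CPM (counts scaled to a common library size) in hydrogel and 31845 to 51975 CPM in liquid, and 9 of the 12 fell and 0 rose. The 24 listed macrophage and monocyte markers summed to 4491, 8402, 9658 and 8216 CPM in hydrogel replicates 1 to 4, against 1340, 2615, 1197 and 1505 CPM in liquid replicates 1 to 4, and 18 of 22 tested rose while 0 fell. Hydrogel 1 and liquid 2 stood apart from their own groups: on the first principal component, which held 65.1% of the variance, hydrogel scored -16.8, -51.6, -52.3 and -46 and liquid 49.3, 17, 53.1 and 47.4. Leaving out both libraries changed many of the estimates below, and such values are given beside them. The 2 libraries were picked from these same data. Of the 28 tested granule genes, hydrogel 1 was the lowest hydrogel library in 22 and liquid 2 the highest liquid library in 27. Leaving them out thus moves most estimates upward by construction, and calls in that fit are a description and not a test. Totals were 27012172 to 37059314 counts per library in hydrogel and 28825468 to 49281611 in liquid.

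Of the 28 genes tested, 3 rose and 7 fell in hydrogel (edgeR's quasi-likelihood test, Benjamini-Hochberg adjusted p under 0.05 over all 13845 genes tested). Among all genes tested, 15.1% rose and 14.1% fell, 29.3% together. The median log2 change of the 28 was -0.60, beside -0.01 over all genes tested. For 3 of the 28 the hydrogel and liquid libraries did not overlap, which was so for 28.4% of all genes tested. The counts by lineage were 2 higher and 2 lower of 14 neutrophil genes, 1 higher and 0 lower of 7 eosinophil genes, and 0 higher and 5 lower of 7 mast cell and basophil genes. Without hydrogel 1 and liquid 2 the split became 8 higher and 3 lower, and the median log2 change 0.08, in a fit that called 21.6% of genes higher and 19.0% lower. In these bulk libraries fewer cells of a type and less RNA per cell cannot be told apart.

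**Figure D1:**
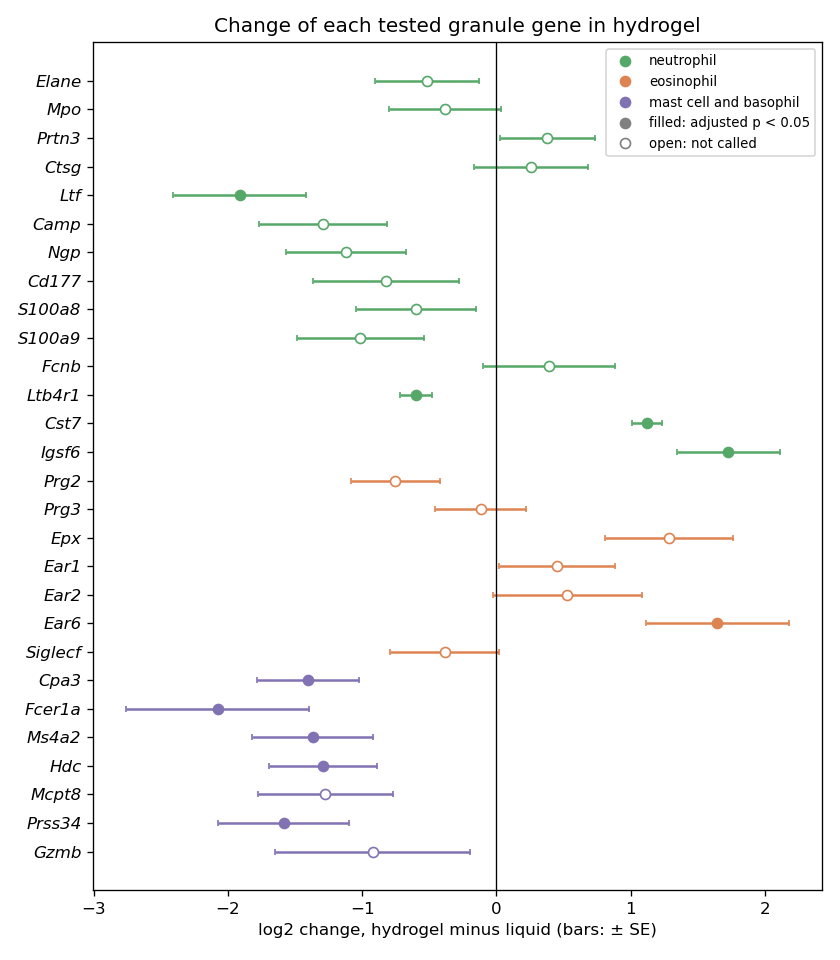
Log2 change of each of the 28 tested genes, hydrogel over liquid, with bars of 1 standard error, coloured by lineage; filled points passed an adjusted p of 0.05 in edgeR's test and open points did not. The 7 mast cell and basophil genes lie below 0, and the neutrophil and eosinophil genes lie on both sides of it.

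Sequences upstream of the genes are shown for the azurophil granule genes and for Ltf, because 8 of the 10 ratios among these 5 genes kept the cultures apart, and for 4 mast cell and basophil genes, 3 with and 1 without a GATAA match. They are RefSeq windows on GRCm38.p6 of up to 250 bases before the annotated start. Matches were counted in the whole windows, while the printed sequences and their coordinates are trimmed where an exon annotated by GENCODE begins. Distances are counted to the RefSeq start, so a trimmed sequence ends before it. The counts were made on GRCm39, so the windows serve only to show the sequence. Capitals mark matches on either strand to GATAA (named for GATA factors), TTGCNNAA (C/EBP factors), GAGGAAG (PU.1) and TGTGGT (RUNX factors). These patterns were present in 22.6%, 9.56%, 10.6% and 14.05% of 32851 such windows. Windows were found for 29 of the 31 genes, of which 8 held GATAA, 8 TTGCNNAA, 7 GAGGAAG and 9 TGTGGT. A match is only a match of letters and not evidence of binding. The azurophil genes are given first: Elane (chr10:79886062-79886246, plus strand), Mpo (chr11:87793534-87793580, plus strand), Prtn3 (chr10:79879417-79879613, plus strand) and Ctsg (chr14:56102575-56102824, minus strand). Each of the 4 held GAGGAAG, at 85 bases before the start in Elane, 247 and 224 in Mpo, 95 in Prtn3 and 216 in Ctsg.
Elane: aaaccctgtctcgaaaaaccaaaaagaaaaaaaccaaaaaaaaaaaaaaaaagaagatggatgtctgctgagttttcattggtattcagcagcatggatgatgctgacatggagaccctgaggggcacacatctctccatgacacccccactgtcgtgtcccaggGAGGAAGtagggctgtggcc
Mpo: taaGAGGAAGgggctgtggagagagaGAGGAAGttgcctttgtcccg
Prtn3: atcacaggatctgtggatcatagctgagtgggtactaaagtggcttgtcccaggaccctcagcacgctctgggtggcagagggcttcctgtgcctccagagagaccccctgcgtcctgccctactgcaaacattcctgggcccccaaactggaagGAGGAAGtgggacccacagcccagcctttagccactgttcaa
Ctsg: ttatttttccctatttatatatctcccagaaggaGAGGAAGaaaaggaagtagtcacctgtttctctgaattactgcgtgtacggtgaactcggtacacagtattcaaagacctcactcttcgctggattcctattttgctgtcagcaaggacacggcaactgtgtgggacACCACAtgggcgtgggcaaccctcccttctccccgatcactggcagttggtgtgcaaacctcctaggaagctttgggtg

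The specific granule gene Ltf (chr9:111019042-111019270, plus strand) held TTGCNNAA at 75 and GATAA at 31 bases before the start. GATAA also stood at 45 bases before the start of Cpa3 (chr3:20242182-20242431, minus strand), at 224, 37 and 10 bases in Ms4a2 (chr19:11623720-11623969, minus strand) and at 30 bases in Prss34 (chr17:25298144-25298393, plus strand). Of the 7 tested mast cell and basophil genes, Fcer1a held GATAA as well, and Hdc, Mcpt8 and Gzmb held none. A relation between these matches and the changes was not tested. The window of Mcpt8 (chr14:56085274-56085447, minus strand) held TGTGGT at 188 and 139 bases before the start.
Ltf: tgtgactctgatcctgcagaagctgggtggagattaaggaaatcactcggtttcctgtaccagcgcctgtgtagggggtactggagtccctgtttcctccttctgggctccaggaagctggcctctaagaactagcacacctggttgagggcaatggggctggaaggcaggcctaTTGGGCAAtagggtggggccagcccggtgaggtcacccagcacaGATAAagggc
Cpa3: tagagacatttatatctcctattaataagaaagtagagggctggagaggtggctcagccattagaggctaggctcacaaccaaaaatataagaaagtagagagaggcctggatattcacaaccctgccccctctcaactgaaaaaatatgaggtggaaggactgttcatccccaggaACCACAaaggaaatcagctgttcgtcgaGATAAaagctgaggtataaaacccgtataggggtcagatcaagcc
Ms4a2: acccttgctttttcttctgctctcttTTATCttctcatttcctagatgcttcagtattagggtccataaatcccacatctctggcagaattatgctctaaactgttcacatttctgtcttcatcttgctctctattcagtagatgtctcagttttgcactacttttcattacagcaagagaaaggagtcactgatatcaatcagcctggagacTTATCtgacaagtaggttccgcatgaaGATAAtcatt
Prss34: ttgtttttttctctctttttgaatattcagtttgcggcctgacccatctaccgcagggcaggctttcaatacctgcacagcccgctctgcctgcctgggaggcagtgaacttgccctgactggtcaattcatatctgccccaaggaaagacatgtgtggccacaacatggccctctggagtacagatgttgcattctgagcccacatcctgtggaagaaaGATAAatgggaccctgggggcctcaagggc
Mcpt8: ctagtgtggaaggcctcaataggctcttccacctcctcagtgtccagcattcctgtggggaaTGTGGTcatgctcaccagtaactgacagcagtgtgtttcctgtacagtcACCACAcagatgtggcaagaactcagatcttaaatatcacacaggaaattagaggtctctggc

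The 4 azurophil granule genes did not pass the test in either direction. Mpo, the myeloperoxidase that makes hypochlorous acid, was at 89.5, 199, 196 and 200 CPM in hydrogel replicates 1 to 4, against 245, 407, 89.8 and 149 CPM in liquid replicates 1 to 4. Hydrogel 1 and liquid 3 were lowest and liquid 2 highest, and the groups overlapped (log2 change -0.38 ± 0.42 SE, adjusted p = 0.529). Elane, neutrophil elastase, had 22.9, 48.9, 44.3 and 61.5 CPM in hydrogel and 77.6, 103, 28.6 and 45.4 CPM in liquid, in the same order of libraries at the low end (-0.52 ± 0.39, adjusted p = 0.348). Prtn3, proteinase 3, which is encoded beside Elane, had 30.7, 58.8, 59.3 and 70.7 CPM in hydrogel and 50.3, 68.0, 20.4 and 30.3 CPM in liquid. Its log2 change was 0.38 ± 0.36 (adjusted p = 0.457), so its estimate had the opposite sign to that of Elane. Ctsg, the granule protease cathepsin G, had 18.8, 41.0, 42.0 and 45.0 CPM in hydrogel, against 33.5, 54.6, 10.8 and 23.8 CPM in liquid (0.26 ± 0.42, adjusted p = 0.681). Without hydrogel 1 and liquid 2, Prtn3 and Ctsg were called higher in hydrogel, at 0.92 (adjusted p = 0.00765) and 0.93 (adjusted p = 0.0176), and Elane and Mpo were not called. Per kilobase of exon, the mean levels in hydrogel and liquid were 49.98 and 65.1 CPM for Mpo, 45.1 and 64.6 for Elane, 31.7 and 24.4 for Prtn3 and 35.5 and 29.7 for Ctsg. The 4 genes summed to 162 to 377 CPM in hydrogel and 150 to 632 CPM in liquid.

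Of the genes for specific granules and for abundant neutrophil cytosol proteins, 1 of 7 tested fell and 0 rose. Over all genes tested, 14.1% fell and 15.1% rose. The median log2 change of the 7 was -1.01. Without hydrogel 1 and liquid 2 the median was -0.22, with 1 gene lower and 1 higher. Ltf, the iron-binding protein lactoferrin, was at 10.8, 18.9, 31.2 and 14.7 CPM in hydrogel, against 65.5, 149, 32.7 and 36.7 CPM in liquid. The groups did not overlap, although hydrogel 3 and liquid 3 lay close together. Ltf was 3.76-fold lower in hydrogel (log2 change -1.91 ± 0.50 SE, adjusted p = 0.0166), and the call was lost without hydrogel 4 (adjusted p = 0.0510). The estimate was smaller without liquid 2 (-1.26, adjusted p = 0.0163) and without both hydrogel 1 and liquid 2 (-1.05, adjusted p = 0.00896), and both fits kept the call. Camp, the cathelicidin precursor, averaged 7.27 ± 3.53 CPM in hydrogel and 17.8 ± 12.0 CPM in liquid (SD, n = 4 each, edgeR adjusted p = 0.0670). Ngp, neutrophilic granule protein, averaged 91.7 ± 32.3 CPM in hydrogel and 199 ± 141 CPM in liquid (SD, n = 4 each, edgeR adjusted p = 0.0854). In both genes liquid 3 and liquid 4 lay within the hydrogel range, and their log2 changes of -1.29 and -1.12 depended on single liquid libraries. Without liquid 3 both were called lower (adjusted p = 0.0388 for Camp and 0.0421 for Ngp). Without liquid 2 the log2 changes were -0.77 for Camp (adjusted p = 0.152) and -0.53 for Ngp (adjusted p = 0.219), and without hydrogel 1 and liquid 2 they were -0.54 and -0.30.

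The calcium-binding alarmins S100a8 and S100a9, which form the calprotectin heterodimer, had the highest levels per kilobase of the neutrophil genes. S100a9 had 170 CPM per kilobase in hydrogel and 342 in liquid, and S100a8 had 121 and 183. S100a9 was at 46.4, 107, 128 and 72.8 CPM in hydrogel and 194, 352, 76.8 and 91.2 CPM in liquid, and its log2 change of -1.01 ± 0.47 did not pass (adjusted p = 0.135; -0.22 without hydrogel 1 and liquid 2). S100a8 did not pass either (-0.60 ± 0.45, adjusted p = 0.347), nor did Cd177, a surface and granule membrane protein of neutrophils (-0.82 ± 0.54, adjusted p = 0.286). Fcnb, the lectin ficolin B of immature myeloid cells, had 1.10, 3.90, 3.39 and 3.75 CPM in hydrogel, against 1.44, 4.87, 1.69 and 1.29 CPM in liquid. Liquid 2 was the highest and hydrogel 1 the lowest of the 8. With all 8 libraries it did not pass (0.39 ± 0.49, adjusted p = 0.587), and without those 2 libraries it was called higher in hydrogel (1.33, adjusted p = 0.000389). Retnlg, a resistin-like protein of mature neutrophils, had 0, 0, 2 and 0 reads in the hydrogel libraries and 13, 27, 15 and 8 in the liquid libraries. The sums of 2 reads in hydrogel and 63 in liquid gave a level per total count that was 26.2-fold lower in hydrogel, with an exact 95% interval of 6.96 to 221 that covers counting error only, and every liquid library had more reads than every hydrogel library. It entered a test only when no low-count filter was used (adjusted p = 0.00153).

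The other 3 neutrophil symbols encode surface receptors and an inhibitor rather than stored effectors, and 2 rose and 1 fell. Ltb4r1, the leukotriene B4 receptor, had 18.3, 16.1, 19.7 and 16.2 CPM in hydrogel, against 30.5, 24.5, 29.5 and 21.97 CPM in liquid. No hydrogel library reached the lowest liquid library, and Ltb4r1 fell (log2 change -0.60 ± 0.12, adjusted p = 0.00540). Cst7, cystatin F, an inhibitor of lysosomal cathepsins that macrophages and cytotoxic lymphocytes also express, had 35.3, 36.3, 36.3 and 26.9 CPM in hydrogel and 15.8, 16.1, 13.9 and 16.1 CPM in liquid. Its groups were again apart, and it rose 2.18-fold (1.12 ± 0.11, adjusted p = 0.000238). Igsf6, an immunoglobulin-family receptor that is also expressed by monocytes and macrophages, had 33.97, 74.7, 85.2 and 71.3 CPM in hydrogel, against 16.0, 37.6, 11.6 and 15.1 CPM in liquid. It rose 3.32-fold (1.73 ± 0.38, adjusted p = 0.00813), although liquid 2 lay above hydrogel 1. All 3 calls held when any single library was left out, and without hydrogel 1 and liquid 2 the log2 changes were -0.64 for Ltb4r1, 1.14 for Cst7 and 2.46 for Igsf6. The macrophage markers given above moved in the direction of Cst7 and Igsf6, and their part in these values was not tested.

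**Figure D2:**
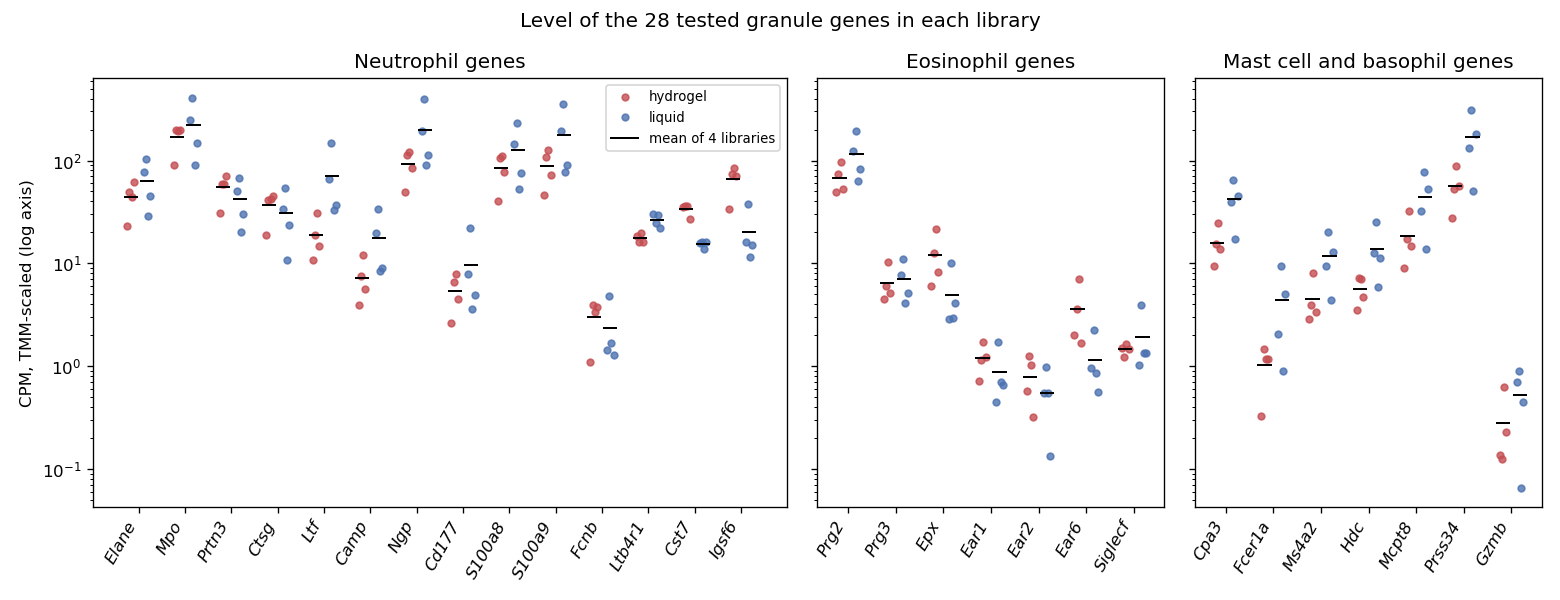
Level of the 28 tested genes in each library, in TMM-scaled CPM on a log axis, with the 4 hydrogel libraries (red) left of the 4 liquid libraries (blue) and a line at each group's mean. Liquid 2 is the highest of the liquid libraries in 27 of the 28 tested genes, and hydrogel 1 is the lowest of the hydrogel libraries in 22.

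Over all genes tested, 15.1% rose, 14.1% fell and 28.4% had groups apart. Of the 7 eosinophil genes 1 rose and 0 fell, and in 0 of the 7 were the groups apart. Prg2, the major basic protein and the most abundant of them per kilobase (81.5 CPM per kilobase in hydrogel and 137 in liquid), was at 49.3, 74.0, 97.4 and 52.4 CPM in hydrogel, against 123, 192, 62.6 and 82.8 CPM in liquid. The groups overlapped through liquid 3 and liquid 4 (log2 change -0.75 ± 0.33, adjusted p = 0.117), and without hydrogel 1 and liquid 2 the log2 change was -0.25. Epx, eosinophil peroxidase, was at 6.08, 12.6, 21.4 and 8.22 CPM in hydrogel and 2.86, 9.99, 2.97 and 4.07 CPM in liquid, so its estimate had the opposite sign to that of Prg2. It lay just outside the threshold with all libraries (1.29 ± 0.48, adjusted p = 0.0677), and it was called higher without liquid 2 (1.86, adjusted p = 0.00494) or without hydrogel 1 (adjusted p = 0.0297). Ear6, a ribonuclease of the eosinophil-associated family, was at 2.00, 3.62, 7.04 and 1.68 CPM in hydrogel, against 0.963, 2.24, 0.858 and 0.555 CPM in liquid. Only liquid 2 reached into the hydrogel range. Ear6 was called higher (1.65 ± 0.53, adjusted p = 0.0417), but the call held in 3 of the 8 fits that leave out 1 library, and the adjusted p was 0.133 without hydrogel 3, its highest library.

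The ribonucleases Ear1 and Ear2 stayed at or below 1.72 CPM in every library and did not pass (0.45, adjusted p = 0.465, and 0.53, adjusted p = 0.512). Their transcripts were 96.0% identical over the aligned length, with an unbroken identical run of 96 bases, so their separate counts are uncertain. Prg3, the major basic protein homolog, averaged 6.46 ± 2.60 CPM in hydrogel and 7.01 ± 3.12 CPM in liquid (SD, n = 4 each) with a log2 change of -0.12 ± 0.34 (edgeR adjusted p = 0.828). Siglecf, the sialic acid-binding receptor that marks mouse eosinophils, was at 1.51, 1.22, 1.64 and 1.46 CPM in hydrogel, against 1.03, 3.94, 1.34 and 1.35 CPM in liquid. Apart from liquid 2 the libraries of both groups lay between 1.03 and 1.64 CPM, and Siglecf did not pass (adjusted p = 0.512). Without hydrogel 1 and liquid 2, 3 of the 7 eosinophil genes were called higher, 0 lower, and their median log2 change was 1.09, against 0.45 with all libraries. Those called were Epx (2.10), Ear6 (2.39) and Ear1 (1.17).

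Beside the mast cell and basophil counts, 14.1% of all genes tested fell, 15.1% rose and 28.4% had groups apart. Of the 7 tested mast cell and basophil genes 5 fell and 0 rose, with a median log2 change of -1.37. In 0 of the 7 were the groups apart. Prss34, the serine protease Mcpt11 of basophils, was the most abundant of them per kilobase, at 46.1 CPM per kilobase in hydrogel and 138 in liquid. It had 27.3, 52.8, 88.4 and 56.4 CPM in hydrogel, against 133, 309, 51.0 and 181 CPM in liquid. Of the liquid libraries, replicate 3 alone lay within the hydrogel range, below hydrogel 2, 3 and 4, and Prss34 was 3.00-fold lower in hydrogel (log2 change -1.58 ± 0.49, adjusted p = 0.0348). Cpa3, the mast cell carboxypeptidase, had 9.48, 15.4, 24.7 and 13.7 CPM in hydrogel and 39.6, 65.1, 17.3 and 45.1 CPM in liquid, where liquid 3 lay below hydrogel 3 alone (-1.40 ± 0.38, adjusted p = 0.0205). Mcpt8, a protease that marks mouse basophils, had 9.04, 17.2, 31.97 and 14.8 CPM in hydrogel, against 32.04, 77.5, 13.6 and 53.2 CPM in liquid. Mcpt8 did not pass (-1.27 ± 0.50, adjusted p = 0.0818), with an estimate close to those of the genes that did.

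Both chains of the high-affinity IgE receptor among the 7 tested genes of the lineage fell. Fcer1a, its IgE-binding chain, had 0.329, 1.47, 1.17 and 1.17 CPM in hydrogel, against 2.05, 9.47, 0.902 and 4.996 CPM in liquid (-2.08 ± 0.68, adjusted p = 0.0440). Ms4a2, its signalling beta chain, had 2.85, 3.90, 8.03 and 3.40 CPM in hydrogel and 9.37, 20.05, 4.45 and 12.9 CPM in liquid (-1.37 ± 0.45, adjusted p = 0.0446). Liquid 3 was the low liquid library in both. Hdc, histidine decarboxylase, which makes histamine and is also expressed in other myeloid cells, had 3.51, 7.22, 7.01 and 4.69 CPM in hydrogel, against 12.7, 25.2, 5.85 and 11.3 CPM in liquid (-1.29 ± 0.40, adjusted p = 0.0357).

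The 5 calls were sensitive to single libraries. Among the 8 fits that leave out 1 library, Cpa3 was called in 5, Prss34, Fcer1a and Ms4a2 in 2 and Hdc in 1. Without hydrogel 2, hydrogel 4 or liquid 4 none of the 7 genes passed, and without liquid 3, the low liquid library, 6 of 7 did. Leaving out liquid 2, the highest of all 8 libraries in each of the 7 genes, gave log2 changes of -1.12 for Prss34, -1.37 for Fcer1a, -0.98 for Ms4a2 and -0.83 for Hdc. Without both hydrogel 1 and liquid 2 only Cpa3 was called (-0.91, adjusted p = 0.0277), and the median log2 change of the 7 genes was -0.79.

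The remaining genes of the lineage were rare. Gzmb, granzyme B, which basophils, mast cells and cytotoxic lymphocytes can express, had 5, 4, 17 and 7 reads in hydrogel and 22, 27, 3 and 17 in liquid (log2 change -0.92 ± 0.72, adjusted p = 0.372). The 7 listed markers of NK and T cells summed to 2.52 to 4.66 CPM in hydrogel and 3.21 to 8.28 CPM in liquid, and 0 of the 1 tested passed; their part in the Gzmb reads was not tested. The connective-tissue mast cell proteases were near the detection limit: Cma1 had 27 reads in all hydrogel libraries together and 43 in all liquid libraries, and Tpsb2 had 7 and 14. Exact 95% intervals of their level per total count, liquid over hydrogel, were 0.801 to 2.23 for Cma1 and 0.629 to 4.87 for Tpsb2. The intervals cover counting error only and not the spread between cultures. No difference was detectable at this depth.

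**Figure D3:**
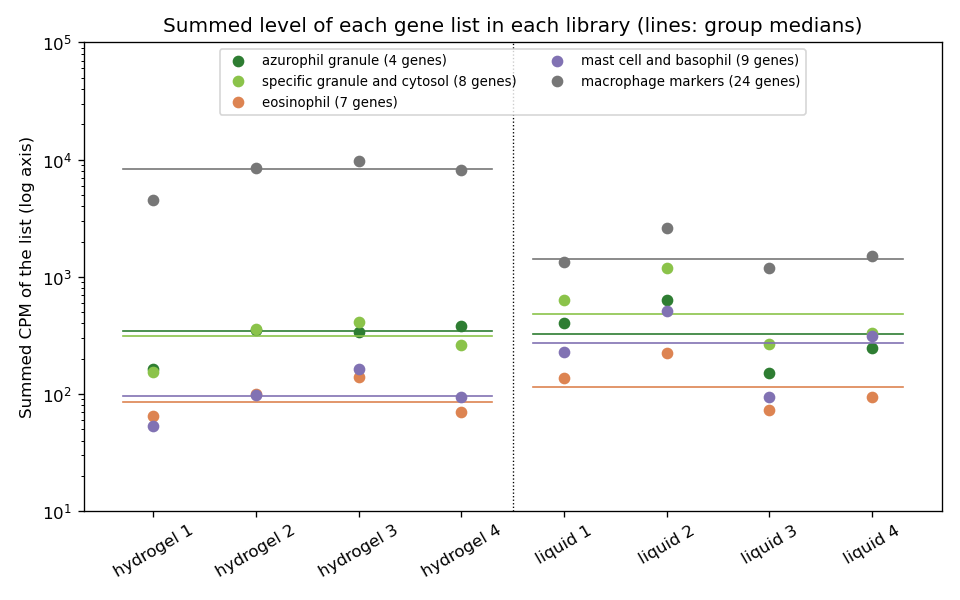
Summed CPM of each gene list in each library, on a log axis, with a line at the median of the 4 hydrogel and of the 4 liquid libraries; the macrophage markers are shown beside the granule genes. The mast cell and basophil sum is 53.0 to 162 CPM in hydrogel and 93.6 to 507 CPM in liquid, and liquid 3 lies within the hydrogel range.

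Within a culture the same libraries were often the highest or the lowest, but not to the same extent in each lineage. Of the 28 tested genes, liquid 2 was the highest liquid library in 27 and liquid 3 the lowest liquid library in 21, and hydrogel 3 was the highest and hydrogel 1 the lowest hydrogel library in 20 and 22. Liquid 3 was the lowest liquid library in 12 of 14 neutrophil, 2 of 7 eosinophil and 7 of 7 mast cell and basophil genes. Hydrogel 3 was the highest hydrogel library in 0 of 4 azurophil genes and in 6 of 7 genes of the specific granule and cytosol group. These counts were not made over all genes tested. The level of 1 gene over another within a library does not depend on how much RNA of the lineage a library holds in all, if both genes belong to it, nor on its scaling. Such ratios of CPM, without length correction, were taken for all pairs of genes of a lineage with at least 5 reads in every library, and they are given as a description, since the pairs were looked at after the values were known. The hydrogel and liquid ratios did not overlap in 52 of 91 neutrophil pairs (57.1%), 9 of 21 eosinophil pairs (42.9%) and 0 of 15 mast cell and basophil pairs, against 29.8% of the 87986745 pairs of all genes tested at that depth. Whether cells outside a lineage also held RNA of its genes, which would enter the ratios, was not tested.

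Within the azurophil genes the ratios split Elane and Mpo from Prtn3 and Ctsg. Elane over Prtn3 was 0.746, 0.832, 0.746 and 0.870 in hydrogel, against 1.54, 1.51, 1.40 and 1.498 in liquid. Each group was tight and the groups were far apart, with a ratio 1.87-fold lower in hydrogel. Mpo over Ctsg was 4.75, 4.86, 4.66 and 4.45 in hydrogel and 7.33, 7.45, 8.27 and 6.26 in liquid, again without overlap. Of the 6 azurophil pairs 4 did not overlap, and the other 2, Elane over Mpo and Prtn3 over Ctsg, did. Prtn3 or Ctsg over the 7 genes of the specific granule and cytosol group did not overlap in 12 of 14 pairs, and Elane or Mpo over the same 7 genes in 3 of 14. Ltf stood apart from nearly all the others: its ratio to another neutrophil gene did not overlap in 12 of 13 pairs, among them all 6 with the other genes of the specific granule and cytosol group, and Ltb4r1 was the exception. Mpo over Ltf was 8.30, 10.6, 6.27 and 13.7 in hydrogel, against 3.75, 2.74, 2.75 and 4.06 in liquid. Prtn3 over Ltf was 2.85, 3.12, 1.90 and 4.82 in hydrogel and 0.768, 0.458, 0.623 and 0.825 in liquid. Every hydrogel library thus held more Mpo and Prtn3 reads per Ltf read than any liquid library, hydrogel 1 and liquid 2 included.

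The eosinophil genes differed among themselves as well. Prg2 over Epx was 8.11, 5.86, 4.55 and 6.38 in hydrogel, against 43.0, 19.2, 21.1 and 20.4 in liquid, a ratio 4.00-fold lower in hydrogel. Prg2 over Prg3 was 10.98, 12.4, 9.49 and 10.3 in hydrogel and 16.0, 17.3, 15.2 and 16.2 in liquid. Both ratios kept the groups apart, while Epx over Ear6 overlapped. In the mast cell and basophil genes the differences of mean log2 ratio ran from -0.61 to 0.43. Mcpt8 over Prss34 was 0.331, 0.326, 0.362 and 0.263 in hydrogel, against 0.241, 0.251, 0.268 and 0.294 in liquid, and Cpa3 over Prss34 was 0.347, 0.291, 0.279 and 0.243 in hydrogel and 0.297, 0.211, 0.340 and 0.249 in liquid. In both of these the liquid values reached into the hydrogel values.

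**Figure D4:**
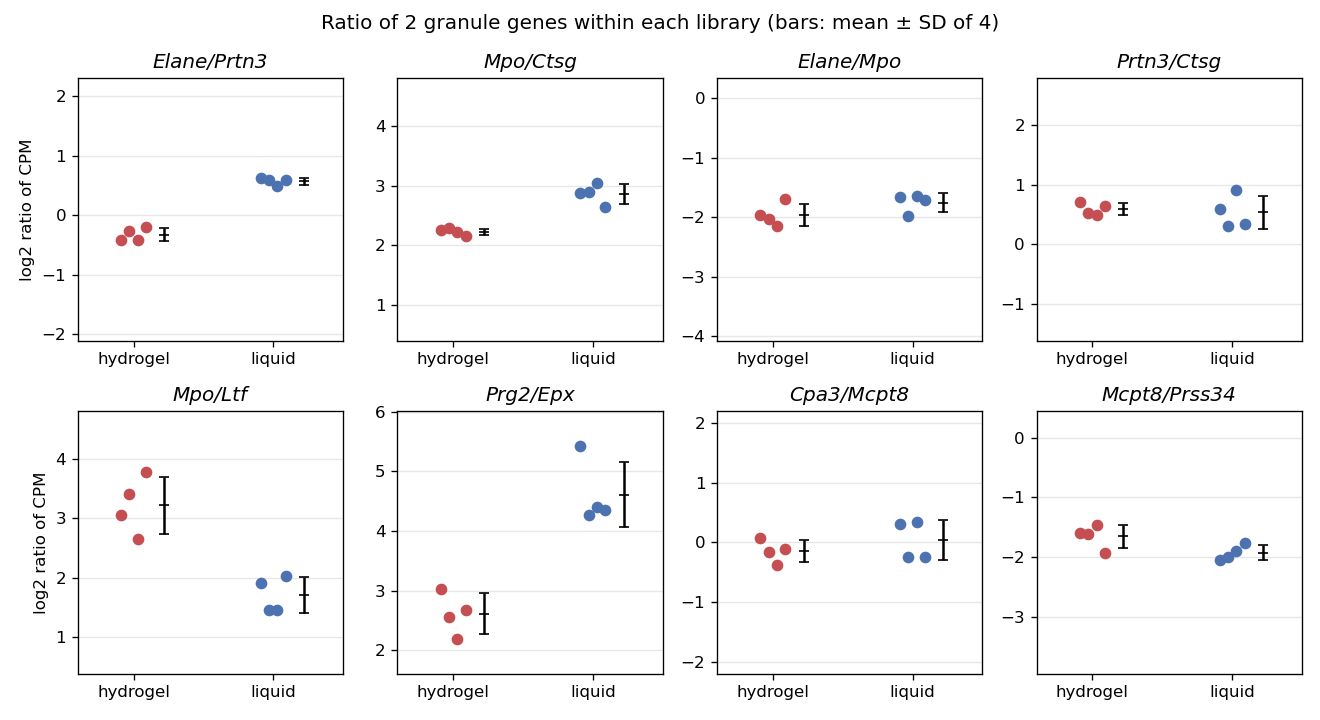
Log2 ratio of the CPM of 2 granule genes of a lineage in each library, with the hydrogel libraries left of the liquid libraries and bars of mean ± SD over 4 libraries. Elane over Prtn3, Mpo over Ctsg, Mpo over Ltf and Prg2 over Epx keep the groups apart, and Elane over Mpo, Prtn3 over Ctsg and the mast cell and basophil ratios overlap.

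Other genes of the same lineages, from lists that hold receptors, transcription factors and further effector proteins, did not move in 1 direction. Of 19 further neutrophil genes tested, 6 rose and 3 fell, with a median log2 change of -0.41. Without hydrogel 1 and liquid 2, 8 rose and 2 fell, with a median of 0.35. Beside these counts and those of the further lists below, 15.1% of all genes tested rose and 14.1% fell. In the fit without the 2 libraries these shares were 21.6% and 19.0%. The 4 with the smallest adjusted p among those that rose were Mmp8, the neutrophil collagenase, with 176 ± 54.1 CPM in hydrogel and 15.6 ± 7.12 CPM in liquid (SD, n = 4 each, log2 change 3.501 ± 0.35 SE, edgeR adjusted p = 0.000248), the haptoglobin gene Hp (2.21), Ctsc (1.08), whose product activates the granule serine proteases, and the G-CSF receptor gene Csf3r (2.07). Mmp8 thus rose 11.3-fold while Ltf fell. The 3 that fell were Serpinb1a (-0.49), an inhibitor of elastase, cathepsin G and proteinase 3, Srgn (-0.45), the proteoglycan core that holds granule proteases, and Mmp9 (-1.89), the gelatinase. Each of these 3 kept its call in 2 of the 8 fits that leave out 1 library. Without hydrogel 1 and liquid 2, Mmp9 was not called (-0.87, edgeR adjusted p = 0.0914). In that fit Serpinb1a (-0.65, edgeR adjusted p = 2.6e-05) and Srgn (-0.64, edgeR adjusted p = 1.9e-05) were called. Monocytes and macrophages can express several of the genes that rose, and megakaryocytes express Srgn; the part of either cell type was not tested.

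Of the further eosinophil genes 2 of 4 tested rose and 0 fell: Csf2rb, the common beta chain of the receptors for interleukin 3, interleukin 5 and GM-CSF (2.31, adjusted p = 0.00121), and its paralog Csf2rb2 (2.25, adjusted p = 0.00273). The 2 paralogs are closely alike in sequence, so reads may be shared between them. The macrophage markers given above also rose, and their part in Csf2rb and Csf2rb2 was not tested. Ccr3 (0.09, edgeR adjusted p = 0.936) and Alox15 (-0.62, edgeR adjusted p = 0.417), the other genes tested, were not called. Of 15 further mast cell and basophil genes, 3 rose and 4 fell (4 and 5 without hydrogel 1 and liquid 2). Those that fell were Slc18a2, the vesicular monoamine transporter (-1.67, adjusted p = 0.000162), the transcription factor gene Gata2 (-1.30, adjusted p = 0.000949), the leukotriene C4 synthase gene Ltc4s (-1.04, adjusted p = 0.00981) and the interleukin 33 receptor gene Il1rl1 (-1.45, adjusted p = 0.0290, called in 4 of the 8 fits that leave out 1 library and not without hydrogel 1 and liquid 2). Megakaryocytes also express Slc18a2 and Gata2. Those that rose were Mitf (2.25), a transcription factor that macrophages and mast cells use, Hpgds (1.71), a prostaglandin D synthase, and the interleukin 3 receptor gene Il3ra (0.95).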

How the data were processed

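Polyadenylated RNA of 8 mouse megakaryocyte cultures was sequenced as stranded libraries, per the labels' protocols. The deposited table holds raw read counts per gene, made by the authors with bcl2fastq, STAR 2.7.10b and HTSeq 0.13.5 on GRCm39, per the submitters' processing notes; neither the annotation release nor how strand was counted is given in the sources used here, so reads of genes with antisense or near-identical partners may be misassigned. The table also held 2 stray lines without a gene, which were dropped. Symbols came from a GENCODE annotation of GRCm38, which matched 26534 identifiers and left 1145 without a symbol. Exon lengths came from GENCODE on GRCm38 too, as did the exon starts at which printed sequences and their coordinates were trimmed.

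Groups came from the labels. Low counts were removed by filterByExpr and libraries scaled by TMM in edgeR 4.0.16 (R 4.3.3). Its quasi-likelihood test compared the cultures with no other term, and p-values were adjusted by Benjamini and Hochberg over 13845 genes with a threshold of 0.05. A standard error is the log2 change divided by the square root of F, and fold changes are hydrogel over liquid. CPM are TMM-scaled. The p-values measure the spread between cultures; whether each came from its own animal is not stated in the labels. Scripts were tested on simulated data. There edgeR recovered 42.9% of 1.5-fold, 73% of 2-fold and 91.3% of 4-fold changes, and 2.13% of its calls were false. The false share was 2.8% with limma-voom and 17.1% with DESeq2. DESeq2 1.42.0, limma-voom (limma 3.58.1), other scalings and filters, a replicate block and fits without single libraries were alternatives. Named were all symbols of the list, and of the further lineage lists up to 4 passing genes per direction with the smallest adjusted p. Fcer1g, Ccr3 and Alox15 are named beside these although they did not pass. The genes and lists were chosen with earlier results of these data known. Mcpt4 and Tpsab1 were not analysed here.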

Additional observations from a re-analysis of the deposited data

Results flagged for a closer look

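In 9 of 62 group-by-gene sets of 4 libraries, 1 library lay far from the other 3 (its gap to the nearest of them over the range passed Dixon's critical value), which chance gives in about 1 of 20 sets; genes of a lineage share their libraries, so the sets are not independent. In hydrogel, replicate 1 was low for Mpo (89.55 CPM) and Ctsg (18.85 CPM), replicate 4 was low for Cst7 (26.9 CPM), and replicate 3 held the only Retnlg reads (0.0730 CPM, 2 reads). In liquid, replicate 2 was high for Fcnb (4.865 CPM), Igsf6 (37.6 CPM), Epx (9.99 CPM) and Siglecf (3.945 CPM), and replicate 3 was low for Cst7 (13.9 CPM). Hydrogel 1 and liquid 2, which hold 6 of the 9 values, also stood apart on the first principal component over all genes.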

How the results depend on the processing

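Among all genes 4052 were called; alternatives gave 2700 (without hydrogel 2) to 4975 (without liquid 2) when 1 library was left out, and 5633 without hydrogel 1 and liquid 2. The neutrophil counts of 2 higher and 2 lower were the same with DESeq2, limma-voom, other scalings and a 1 CPM filter. With no low-count filter 5 neutrophil genes fell, 2 eosinophil genes rose, 1 eosinophil gene fell and 6 mast cell and basophil genes fell. Without hydrogel 1 and liquid 2, 5 neutrophil and 3 eosinophil genes rose and 1 mast cell or basophil gene fell. The 5 lower mast cell and basophil genes became 2 with scaling by library totals alone and 1 with limma-voom. With 1 library left out, 2 neutrophil genes rose in each fit and 1 (without hydrogel 4) to 4 (without liquid 3) fell, 0 to 2 eosinophil genes rose and 0 to 1 fell, and 0 to 6 mast cell and basophil genes fell.

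Estimates that changed sign, none of them called, were those of Mpo (-0.64 to 0.083), Ctsg (-0.023 to 0.69), Prg3 (-0.43 to 0.19) and Siglecf (-0.59 to 0.22) when 1 library was left out, and, without hydrogel 1 and liquid 2 together, Elane (0.048), Mpo (0.31), Cd177 (0.24), S100a8 (0.12), Prg3 (0.35) and Siglecf (0.22). Of 474 estimates under alternatives, 397 kept direction and side of the threshold, 47 lost and 19 gained a call; the cause was not tested.

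With a replicate block, 4238 genes were called, 2 eosinophil genes rose and 3 mast cell and basophil genes fell. The deviations of same-numbered libraries from their group means correlated at 0.22, 0.33, -0.13 and 0.10. Those of differently numbered libraries ran from -0.546 (hydrogel 1 with liquid 2) to 0.438 (hydrogel 1 with liquid 3). For liquid 1, 2 and 4 the same-numbered hydrogel library correlated highest, and for liquid 3 hydrogel 1 did. These values do not settle whether the numbers pair cultures. The labels do not say so either, and the main fit used no pairing.

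Counts limit Retnlg, Gzmb, Cma1, Tpsb2, Ear1 and Ear2 most.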
